A study of Mus musculus with 2 samples.

Results

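The cells described here were tumour leukocytes with RNA of Cd209a, a C-type lectin receptor (mm10, chr8:3743397-3748984, minus strand), together with RNA of the MHC class II genes H2-Aa, H2-Ab1 and H2-Eb1. They numbered 402 of the 22044 barcodes that passed filters. A barcode was taken when it had at least 2 Cd209a UMIs (unique molecular identifiers, 1 per captured RNA molecule), at least 5 UMIs of the 3 class II genes, under 5 C1qa, C1qb and C1qc UMIs per 10000, at most 1 Cd3d, Cd3e and Cd3g UMI, and under 5 Mmp12 and Arg1 UMIs. The C1q limit removes macrophages and the Cd3 limit removes T cells, while Mmp12 and Arg1 mark tumour macrophages. The working name for such cells is type 2 conventional dendritic cells (cDC2).

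CD45+ leukocytes were sorted from tumours of C57BL/6 mice after collagenase and DNase digestion, and RNA was captured from its 5′ end in droplets. The groups were WT mice and Ythdf2 cKO mice, with 1 library each. Ythdf2 binds m6A-modified RNA, and cKO stands for its conditional knockout. The sources used here do not give the tumour model, the driver of the deletion, the age of the mice or how many were pooled. With 1 library per group no difference between the groups could be tested, and every interval below is a 95% interval that covers counting error only.

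Conventional dendritic cells take up antigen in tissue and show it to T cells. The cDC2 branch depends on the cytokine receptor Flt3 and on transcription factors such as Irf4, and it presents antigen on MHC class II mainly to CD4 T cells. Zbtb46 is a transcription factor that marks conventional dendritic cells. In tumours, monocyte-derived cells can carry many of the same genes, so Cd209a and class II alone do not separate the lineages.

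The library labelled WT held 12179 filtered barcodes and the library labelled cKO held 9865. The chosen cells numbered 189 and 213. They were deeper in the library labelled cKO, with a median of 13744 UMIs against 8172 and 3360 genes against 2600, while their mitochondrial share was alike at 2.44% and 2.33%. Summed over cells, the profiles rested on 1715489 UMIs (WT) and 3170259 UMIs (cKO). The libraries shared 43 barcodes, of which 0 were among the chosen cells. No doublets were removed, and taking out the barcodes with the highest doublet scores would remove 8 of the chosen cells in each library.

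Ythdf2, the gene named as deleted (chr4:132184912-132212303, minus strand), stood at 67.6 CPM in the library labelled WT, where CPM is the UMI count of a gene scaled to the same total in each summed profile. For the library labelled cKO the value was 138.5 CPM, 2.05-fold higher (1.66 to 2.53). At 1 depth, a Ythdf2 UMI was found in 39.7% and 45.7% of the cells. Monocytes of the same libraries stood at 51.4 and 400 CPM, and T cells at 55.6 and 67.4 CPM. These values go against the label, and reads from the 5′ end may come from exons that remain, so they check nothing about the deletion. The groups are therefore called the library labelled WT and the library labelled cKO. Lyz2, the lysozyme gene of myeloid cells, went the other way, at 1756 CPM and 899 CPM in the chosen cells and at 10160 CPM and 5059 CPM in monocytes. In cells with a Flt3 UMI the Lyz2 log2 ratio was -0.19, and at 1 depth those cells stood at 1113 and 1247 CPM.

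The markers gave a mixed picture of the label. Clec10a, a galactose-binding lectin of cDC2, had a UMI in 61.4% of the cells of the library labelled WT and 64.3% of the library labelled cKO. Kmo, the kynurenine monooxygenase, was found in 65.1% and 80.8%, and Ciita, the transactivator of class II genes, in 83.1% and 87.3%. Flt3 was found in fewer cells, 32.8% and 46.9%, and Zbtb46 in 20.1% and 29.1%. Here and below, shares given without a matched depth can be raised by the deeper cells of the library labelled cKO. At 1 depth the shares were 63.6% and 61.9% for Kmo, 27.15% and 32.4% for Flt3 and 16.6% and 17.1% for Zbtb46. The chosen cells stood apart from gated monocytes in all of these genes. Clec10a stood at 370 and 293 CPM against 24.1 and 17.6 CPM in monocytes, Flt3 at 56.0 and 72.2 CPM against 3.91 and 8.14 CPM, and Zbtb46 at 26.8 and 26.8 CPM against 1.00 and 0.982 CPM. Several of these genes did not separate the chosen cells from gated plasmacytoid dendritic cells. Those held Clec10a at 268 and 333 CPM, Kmo at 225 and 234 CPM and Flt3 at 87.6 and 100 CPM. Ciita, at 64.4 and 52.2 CPM, and Zbtb46, at 5.71 and 4.82 CPM, were lower in them than in the chosen cells.

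The chosen cells also held RNA of genes found in monocytes. Plac8 had a UMI in 96.3% (WT) and 99.1% (cKO) of them, Ms4a4c in 87.3% and 92.5%, and Ccr2, the receptor that brings monocytes into tissue, in 91.0% and 93.9%. Ly6c2, the surface antigen of classical monocytes, was found in 67.7% and 71.8%, and Fcgr1, the high-affinity IgG receptor CD64, in 50.8% and 65.7%. At 1 depth of 6641 UMIs the Ly6c2 shares were 64.9% and 66.2%, against 98.7% and 98.1% of monocytes and 65.3% and 82.4% of T cells, which can also carry Ly6C. Only 378 of 2398 (WT) and 1590 of 3021 (cKO) T cells reached that depth, so thinned T cell shares describe the deeper T cells. The Fcgr1 shares at that depth were 45.0% and 54.3%, against 10.3% and 6.16% of T cells. Over 10 monocyte markers the chosen cells had a median of 37.7 and 43.2 UMIs per 10000, below gated monocytes at 105 and 114. Other markers of this set lay in fewer cells, with Fn1 in 25.9% and 34.7%, F13a1 in 25.4% and 23.5% and Hp in 14.8% and 17.4%. Vcan was found in 7.94% and 7.98%, Chil3 in 4.23% and 10.3%, and Ly6c1 in 1.59% and 2.35%. Gated plasmacytoid dendritic cells held Plac8 at 3630 and 4457 CPM and Ly6c2 at 2358 and 2959 CPM, so these genes do not mark monocytes alone. Because the cDC2 markers and these monocyte genes were both present, the cells are called Cd209a-positive cells here.

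Some defining markers of other cell types were at or near 0, while other genes of the same marker sets were present. Xcr1, which defines cDC1, was found in 0 of 189 cells, which allows a share of up to 1.59%, and in 1 of 213. Fscn1 of mature dendritic cells was found in 0 and 2 cells, and Lamp3 in 0 and 0. Of the cDC1 set, Clec9a was found in 10.1% and 16.4% of the cells, Batf3 in 24.3% and 33.8%, Wdfy4 in 53.4% and 65.7% and Naaa in 68.8% and 82.2%. These shares were not matched for depth, and the level of Wdfy4 went the other way, at 110 and 85.8 CPM. The 8 cDC1 markers summed to 468 and 500.3 CPM and the 7 mature dendritic cell markers to 67.0 and 96.8 CPM. Ighm, the IgM heavy chain of B cells, was found in 59.3% and 63.4%, and Gzma of cytotoxic lymphocytes in 3.70% and 16.9%. S100a8 and S100a9 of neutrophils held 357 UMIs in the library labelled WT, 303 of them in 1 cell, and 4 UMIs in the library labelled cKO. The part of RNA from other cells in these values was not tested. Low Cd3 levels were set by the rule. Of 6 mast cell and basophil markers, Cpa3 and Cyp11a1 had at most 1 UMI in either library and the others had 0.

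Plasmacytoid dendritic cell genes lay in few cells. With Tcf4 and Runx2 set aside, 6 plasmacytoid markers (Siglech, Ccr9, Ly6d, Cox6a2, Klk1 and Pacsin1) reached 3 UMIs together in 16 cells (8.47%) and 14 cells (6.57%). Those cells held 97.6% and 93.5% of all UMIs of the 6 genes. Siglech, a lectin of plasmacytoid cells, was found in 17 and 23 cells and summed to 115 and 46.0 CPM over all Cd209a-positive cells, against 2015 and 1832 CPM in gated plasmacytoid dendritic cells. Tcf4, the master factor of plasmacytoid cells, was spread wider and was found in 66.1% and 76.5% of all Cd209a-positive cells.

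**Figure D1:**
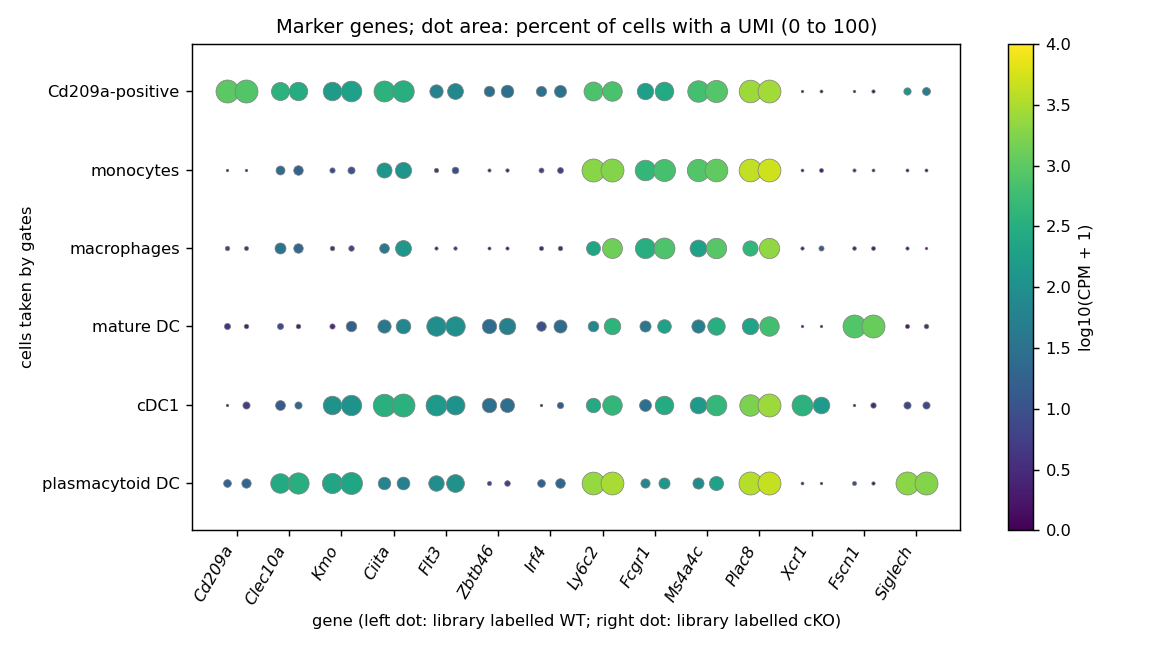
Marker genes in Cd209a-positive cells and 5 other gated cell types, with genes on the x axis and cell types on the y axis. Dot area is the percent of cells with a UMI and colour is log10 of CPM + 1, with the library labelled WT on the left and the library labelled cKO on the right of each pair. Clec10a, Kmo and Ciita dots are large in Cd209a-positive cells and small in monocytes for Clec10a and Kmo, whereas Plac8 and Ms4a4c dots are large in both.

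Beyond the genes of the rule, a small set led the profile against all remaining filtered cells, given here as a description because the rule chose the cells. Cd209d, a neighbouring lectin gene of the same family, was 32.1-fold higher (WT) and 33.4-fold higher (cKO). Its reads can be shared with Cd209a where the sequences match, so its level is uncertain. Clec10a was 12.0-fold and 13.8-fold higher and Kmo 12.2-fold and 11.5-fold higher. Ffar2, a receptor for short-chain fatty acids, was 11.9-fold and 10.4-fold higher, and Cdh1, the adhesion protein E-cadherin, 10.9-fold and 8.61-fold. Bcl11a, a transcription factor of dendritic cell and B cell development, was 7.91-fold and 7.71-fold higher. Gated plasmacytoid dendritic cells held more Bcl11a, at 463 and 489 CPM against 156 and 148 CPM. Their Cdh1 stood at 117 and 119 CPM, beside 117 and 97.8 CPM in the Cd209a-positive cells. Cd209d and Ffar2 were lower in them, at 55.0 and 55.4 CPM and at 0 and 0.803 CPM. Ifitm1, an interferon-induced membrane protein, was the leading gene with the widest gap between libraries, 15.7-fold and 5.76-fold. Its level in the Cd209a-positive cells was 1135 and 1010 CPM, and T cells stood at 70.5 CPM (WT) and 283 CPM (cKO).

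Cells just inside and outside the Cd209a limit differed in several markers. In the library labelled WT, Clec10a stood at 142 CPM in the 55 cells with 1 Cd209a UMI that met the other limits, at 181 CPM in the 22 cells with 2 UMIs and at 392 CPM in the 167 cells with 3 or more. In the library labelled cKO the same groups held 56, 24 and 189 cells at 89.7, 141 and 312 CPM. Ly6c2 was lower in the cells with 3 or more UMIs, at 606 CPM against 1736 CPM at 2 UMIs (WT) and at 695 CPM against 885 CPM (cKO). Cells with 2 UMIs thus stood nearer to those just outside the limit than to the rest in Clec10a, in both libraries.

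The share of filtered cells that met the rule was 1.55% (WT, 1.34 to 1.79) and 2.16% (cKO, 1.88 to 2.47), which gave a ratio of 1.39 (1.14 to 1.70). The order was not kept among deeper barcodes at matched depth. Barcodes of at least 6641 UMIs, 5242 of 12179 and 6177 of 9865, were thinned to that number before the rule was applied. Shallower ones were left out. The rule was then met by 147 (2.80%) and 167 (2.70%) of them, and the log2 ratio of the shares moved from 0.48 to -0.05. How far the matched depth or the barcodes left out moved the ratio was not tested. The limits on Cd209a, class II, Cd3, Mmp12 and Arg1 count UMIs and are not scaled to depth. Within the cells that passed the Cd209a and class II limits, 360 and 318, the C1q limit left 259 and 279 and the Cd3 limit left 191 and 214.

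Among the gene lists, the clearest difference between the libraries lay in interferon-induced genes. Of 23 genes of a type I interferon list, 18 were at least 1.5-fold higher in the library labelled cKO and 0 were lower. Of 20 tested genes of an interferon gamma list, 13 were higher and 0 lower. Among the 7528 genes that reached 10 CPM in 1 of the libraries or both, 328 (4.36%) were at least 1.5-fold higher and 463 (6.15%) were lower, 10.5% in either direction. Every list count for these cells, here and below, is to be read beside those shares. Ratios are on the log2(CPM + 1) scale, where the median of all genes was -0.05, the median of the type I list 0.80 and that of the interferon gamma list 0.91. With another scaling, by median-of-ratios size factors, 407 genes were higher and 391 lower, and the interferon counts were 18 and 14. Rpl29, a ribosomal protein gene outside the lists, was further apart than the interferon genes, at 1126 CPM (WT) and 131 CPM (cKO), 8.62-fold lower. It differed alike in other cells, at 950 and 125.5 CPM in monocytes and 1343 and 168 CPM in T cells.

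Type I interferons act on genes through the interferon-stimulated response element, 2 GAAA blocks with 2 bases between them, and interferon gamma through the gamma-activated site, TTCNNNGAA. The following stretches, from RefSeq promoters of GRCm38.p6, are shown because 5 of the genes named by the largest ratios carry the first motif upstream of their start. Each runs 5′ to 3′ on the gene's strand, with every match on either strand in capitals (TTTC blocks are the same motif read on the other strand). They lie at chr4:156200840-156200919 (Isg15, minus strand), chr19:34583372-34583451 (Ifit3, plus), chr12:26456528-26456607 (Rsad2, minus), chr5:92349058-92349137 (Cxcl10, minus) and chr3:142496734-142496813 (Gbp5, plus), all in the 250 bases before the start.
Isg15: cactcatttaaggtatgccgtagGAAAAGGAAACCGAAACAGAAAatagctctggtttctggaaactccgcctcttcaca
Ifit3: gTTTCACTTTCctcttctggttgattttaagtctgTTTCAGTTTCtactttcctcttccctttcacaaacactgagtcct
Rsad2: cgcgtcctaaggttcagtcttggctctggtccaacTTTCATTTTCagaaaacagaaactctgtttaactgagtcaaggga
Cxcl10: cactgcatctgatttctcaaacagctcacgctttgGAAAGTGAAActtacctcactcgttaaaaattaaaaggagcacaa
Gbp5: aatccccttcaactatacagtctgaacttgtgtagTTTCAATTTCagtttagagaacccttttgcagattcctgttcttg

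Isg15 held 3 overlapping matches, Ifit3 held 2 and each of the others 1. Searched on both strands from 250 bases before to 50 after the start, the paired GAAA motif stood in 3.99% of 27025 gene promoters in the table and in 4.43% of the 6005 tested genes with an entry. It stood in 37 of the 251 genes at least 1.5-fold higher in the library labelled cKO that had an entry (14.7%) and in 10 of the 366 that were lower (2.73%). Among the genes named by the largest ratios, 9 of 13 higher and 0 of 10 lower genes with an entry held it. TTCNNNGAA stood in 9.55% of all promoters, in 10.8% of the higher and in 9.29% of the lower genes. The paired GAAA motif did not separate the interferon lists. It stood in 11 of 19 type I genes with an entry (57.9%) and in 11 of 16 interferon gamma genes (68.8%). TTCNNNGAA stood in 4 of 19 (21.1%) and 9 of 16 (56.2%). A match describes letters in a window and no binding was measured.

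The genes at the top of the ratio were mostly antiviral effectors. Isg15, a ubiquitin-like modifier, stood at 63.0 CPM (WT) and 183 CPM (cKO), 2.91-fold higher (2.37 to 3.61). Ifit3, which belongs to a family that binds viral RNA, stood at 59.5 and 182 CPM, 3.06-fold higher (2.48 to 3.82). Its relatives followed, with Ifit1 at 48.4 and 129 CPM and Ifit2 at 72.3 and 166 CPM. Rsad2, the antiviral enzyme viperin, stood at 89.2 and 238.5 CPM. Irf7, the factor that amplifies type I interferon production, stood at 217 and 359 CPM. The other 5 genes of the list stayed within 1.5-fold, among them Stat2, a part of the transcription factor itself (81.0 and 86.1 CPM), the RNA sensor Ddx58 (77.5 and 90.2 CPM) and the virus tether Bst2 (59.5 and 62.5 CPM).

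The interferon gamma list was led by the chemokines Cxcl9 and Cxcl10, which attract T cells through the receptor Cxcr3 and lie close together on chr5 (92321347-92328079 and 92346638-92348889, minus strand). Cxcl9 stood at 154.5 CPM (WT) and 446 CPM (cKO), 2.88-fold higher (2.53 to 3.30). Its log2 ratio moved from 1.52 to 0.89 with barcodes thinned before the rule. Cxcl10 stood at 414.5 and 1183 CPM, 2.86-fold higher (2.63 to 3.10). The guanylate-binding proteins, GTPases that act on intracellular pathogens, followed with Gbp5 at 30.9 and 76.0 CPM, Gbp4 at 22.7 and 54.9 CPM, Gbp3 at 36.7 and 79.5 CPM and Gbp2 at 150 and 277 CPM. Irf1, a first-wave transcription factor of the pathway, stood at 123 and 230 CPM. Ciita, which interferon gamma can induce, went the other way at 374 and 327 CPM. Other named genes with higher values were Iigp1, an immunity-related GTPase (25.7 and 55.5 CPM), Ifi211 of the interferon-inducible p200 family (96.2 and 209 CPM), the surface receptor Slamf8 (40.2 and 87.7 CPM) and Rnf19b, a ubiquitin ligase (75.8 and 163 CPM). Iigp1 did not keep this direction when barcodes were thinned before the rule or when only cells without Ly6c2 were used (log2 ratios -0.08 and -0.05). The remaining named gene with a higher value was AY036118, at 865 and 1924 CPM, 2.22-fold higher. It differed alike in other cells, at 929 and 1991 CPM in monocytes, 920.5 and 1985 CPM in T cells and 1014 and 2225 CPM in B cells.

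**Figure D2:**
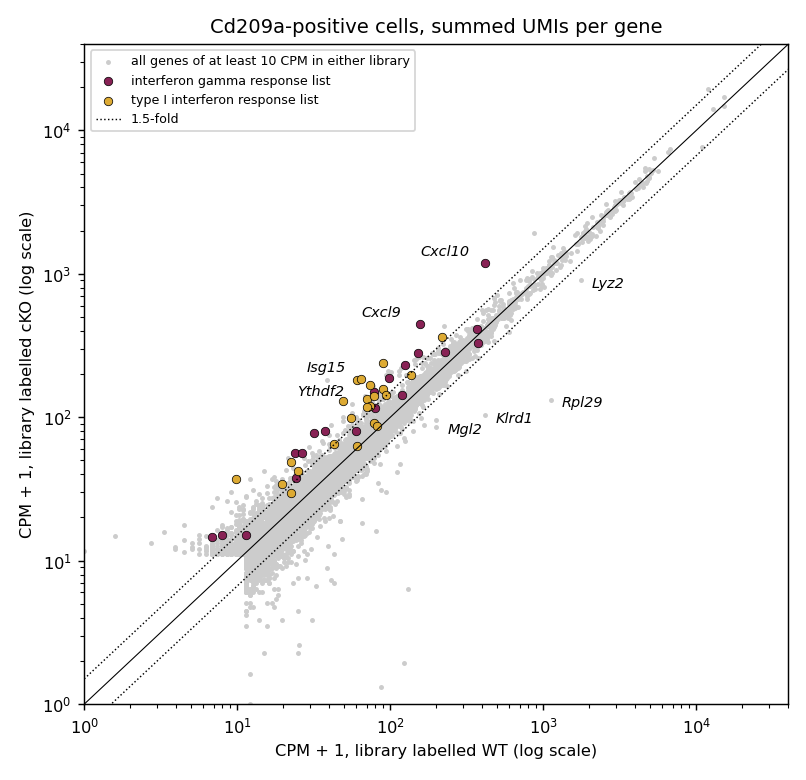
Summed level of each tested gene in Cd209a-positive cells, as CPM + 1 on log axes, with the library labelled WT on the x axis and the library labelled cKO on the y axis. Dotted lines mark 1.5-fold, and the coloured points of both interferon lists lie on or above the diagonal with few exceptions, Cxcl10 at 414.5 and 1183 CPM being the most abundant of those past the line.

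The share of cells with a UMI moved with the level at matched depth. Among 151 (WT) and 210 (cKO) cells of at least 6641 UMIs, each thinned to that number, Isg15 was found in 29.8% (22.6 to 37.8) and 49.5% (42.6 to 56.5). Without thinning the Isg15 shares were 34.4% and 62.0%. Thinning left out 38 and 3 shallower cells. Cxcl9 was found in 13.9% (8.82 to 20.5) and 24.8% (19.1 to 31.2) of the thinned cells, and in 14.3% and 31.9% unthinned. Cxcl10 was found in 30.5% (23.2 to 38.5) and 40.5% (33.8 to 47.4). The intervals of the libraries overlap for Cxcl9 and for Cxcl10. T cells, whose median depths were 3874 and 6781 UMIs, held these RNAs at lower shares when thinned alike: Isg15 in 12.96% and 22.1%, Cxcl9 in 6.08% and 6.79%, Cxcl10 in 19.0% and 28.9%. Among T cells, 2020 and 1431 shallower ones were left out. T cells respond to interferon themselves, so the Isg15 share is no pure background.

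Interferon-induced RNA was uneven among the cells. Per cell, the type I list summed to between 0 and 137 UMIs per 10000 in the library labelled WT, with a median of 11.8 and quartiles of 5.92 and 21.3. In the library labelled cKO it ran from 0 to 160, with a median of 18.5 and quartiles of 7.28 and 38.6. The lower quartiles lay close together and the upper ones further apart, while the highest single cells, at 137 and 160, were nearer in fold than the upper quartiles. The interferon gamma list was also higher in the library labelled cKO, with medians of 14.7 and 21.6 and upper quartiles of 31.8 and 47.2. Gated monocytes stood above both, with type I medians of 16.9 and 34.0.

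**Figure D3:**
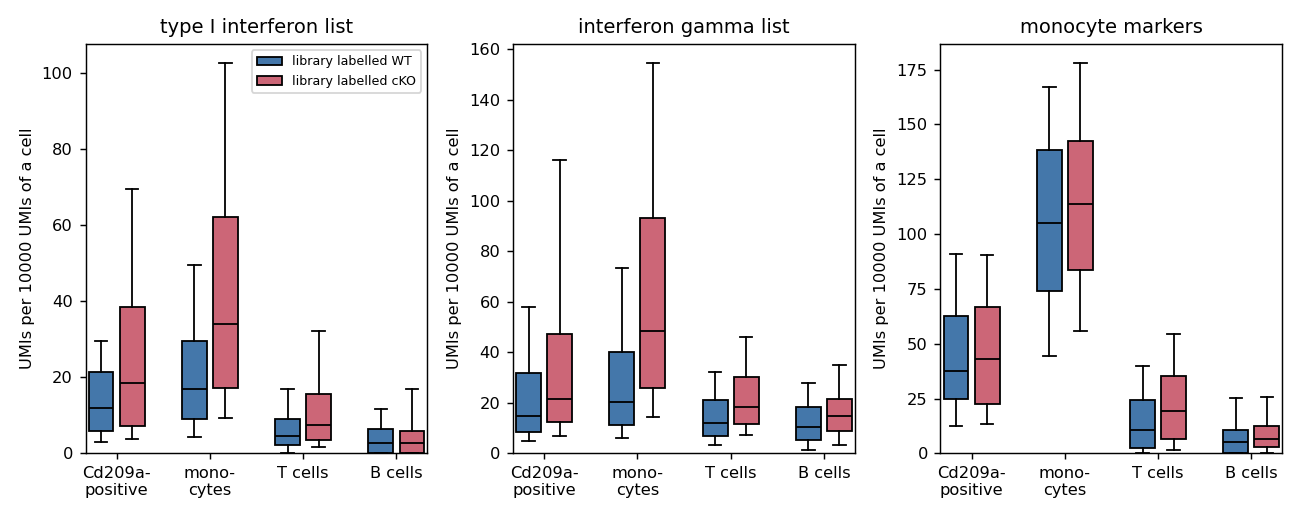
UMIs of the type I list, the interferon gamma list and 10 monocyte markers per 10000 UMIs of each cell (y axis), for Cd209a-positive cells, monocytes, T cells and B cells (x axis) in the libraries labelled WT (blue) and cKO (red). Boxes span the quartiles with a line at the median and whiskers reach percentiles 10 and 90. The type I upper quartile of Cd209a-positive cells is 21.3 in blue and 38.6 in red.

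The interferon lists were also higher in the other gated cells of the library labelled cKO, so nothing here is particular to the Cd209a-positive cells. The median log2 ratio of the type I list was 0.73 in monocytes, 1.31 in macrophages, 0.72 in plasmacytoid dendritic cells, 0.71 in T cells, 0.93 in NK cells and 0.24 in B cells. The interferon gamma list stood at 1.01 in monocytes, 1.72 in macrophages, 1.00 in plasmacytoid dendritic cells and 0.50 in T cells. Beside these lists, the genes at least 1.5-fold higher or lower made up 3.06% and 3.73% of tested genes in monocytes (6.78% in all), 10.1% and 14.2% in macrophages (24.3%), 6.35% and 10.2% in plasmacytoid dendritic cells (16.6%), 2.49% and 3.67% in T cells (6.16%), 2.85% and 7.94% in NK cells (10.8%) and 8.61% and 14.8% in B cells (23.4%). Cxcl10 illustrates the range, at 1001 and 2085 CPM in monocytes and 100 and 548 CPM in plasmacytoid dendritic cells. The share of free RNA from those cells in the Cd209a-positive values was not tested.

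Chemokines other than Cxcl9 and Cxcl10 split in both directions. Of 15 tested chemokine genes, which include these 2, 5 were higher and 5 lower, with a median log2 ratio of -0.02. Cxcl16, the ligand of Cxcr6, stood at 70.0 CPM (WT) and 130 CPM (cKO). Ccl5, a chemokine for T cells and monocytes, stood at 37.3 and 182 CPM. Gzma, a granzyme of cytotoxic lymphocytes, moved the same way in the Cd209a-positive cells, at 55.4 and 123 CPM, and stood at 114 and 1185 CPM in T cells. The part of lymphocyte RNA in the Ccl5 values was not tested. Ccl22, a chemokine for Ccr4-bearing T cells, stood at 5.83 and 22.7 CPM, but 59.7% of its UMIs in the library labelled cKO lay in 1 cell, and its log2 ratio was -1.13 when cells with 1 Cd209a UMI were added and 0.84 without the top cell. Ccl17, which binds the same receptor, stood at 27.4 and 10.1 CPM. Ccl7, a ligand of Ccr2, stood at 81.6 and 33.8 CPM, with 41.4% and 41.1% of UMIs in 1 cell of each library. Ccl12, another Ccr2 ligand, stood at 25.7 and 15.1 CPM, and Cxcl2, which attracts neutrophils, at 598 and 394 CPM. Pf4, a platelet and macrophage chemokine, stood at 42.0 and 5.99 CPM, while macrophages of the same libraries stood at 1856 and 306.5 CPM and T cells at 79.5 and 3.81 CPM.

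Cytokine genes were few at this depth. Of 9 tested, 4 were higher and 0 lower. Il1rn, the antagonist of the interleukin-1 receptor, stood at 35.6 CPM (WT) and 80.4 CPM (cKO), 2.26-fold higher, but its log2 ratio was -0.18 in cells without Ly6c2. Il15, which sustains NK and memory T cells, stood at 11.1 and 20.5 CPM, and Il18, an inducer of interferon gamma, at 21.0 and 35.0 CPM. They were inside 1.5-fold in 3 and 2 of 17 settings. The inflammatory cytokines Il1b and Tnf stayed within 1.5-fold, at 538 and 494 CPM and at 154.5 and 194 CPM. Of 7 chemokine receptors 1 was past 1.5-fold, Ccrl2, a non-signalling receptor that binds chemerin, at 92.7 and 195 CPM. Ccr7, which guides dendritic cells to lymph nodes, stood at 35.0 and 32.8 CPM.

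Costimulation and maturation lists held a few genes past 1.5-fold, to be read against 4.36% higher and 6.15% lower of all genes. Of 14 costimulation and checkpoint genes, 2 were higher and 1 lower, and of 12 tested maturation genes 5 were higher and 1 lower, with Cd83 and Cd40 in both lists. Cd83, a surface marker of activated dendritic cells, stood at 85.1 CPM (WT) and 146 CPM (cKO), and at 1 depth was found in 29.1% (22.04 to 37.1) and 46.7% (39.8 to 53.7) of the cells. Cd40, the receptor for T cell help, stood at 79.3 and 120 CPM, just past 1.5-fold and inside it in 9 of 17 alternative settings (log2 0.24 to 0.91), and was found in 28.5% (21.4 to 36.4) and 43.3% (36.5 to 50.3). T cells thinned alike, which are the deeper ones only, had a Cd83 UMI in 14.0% and 7.42% and a Cd40 UMI in 5.03% and 2.70%. Without thinning, all T cells had a Cd83 UMI in 5.71% and 8.34% and a Cd40 UMI in 1.71% and 2.91%, the opposite order. Cd274, the checkpoint ligand PD-L1, stood at 78.1 and 115 CPM, within 1.5-fold. The costimulatory ligand Cd80 stood at 30.9 and 18.3 CPM, inside 1.5-fold in 4 of 17 settings, while its relative Cd86 stood at 192 and 232 CPM. Il4i1, an amino acid oxidase of mature dendritic cells, stood at 15.7 and 36.0 CPM, with 25.9% and 29.8% of its UMIs in 1 cell of each library and a log2 ratio of -0.28 in cells without Ly6c2.

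Antigen presentation itself was nearly level. Among 10 class II genes beyond those of the rule, 0 were higher and 1 lower, with a median log2 ratio of 0.00. The invariant chain Cd74 stood at 12760 CPM (WT) and 14000 CPM (cKO), and the loading factor H2-DMb1 at 1174 and 1250 CPM. The gene past 1.5-fold was H2-DMb2, another beta chain of the same peptide loader, at 140 and 92.7 CPM, a log2 ratio of -0.59 that was inside 1.5-fold in 8 of 17 alternative settings. H2-DMb1 and H2-DMb2 are near copies, so reads may be split between them. Among 20 class I genes, 0 were past 1.5-fold in either direction and the median was 0.11. The transporter Tap1 stood at 255 and 330 CPM, and H2-T23, a ligand of NK receptors, at 395 and 561 CPM.

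**Figure D4:**
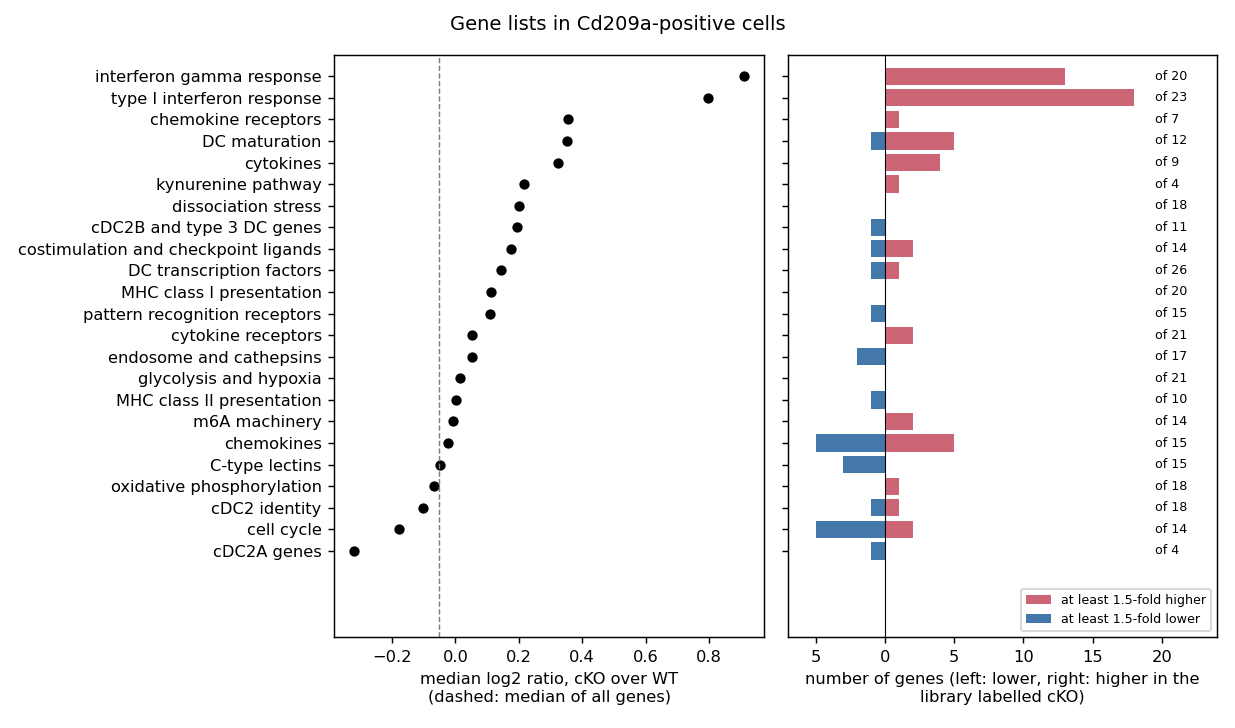
Gene lists in Cd209a-positive cells, with the median log2 ratio of the library labelled cKO over the library labelled WT on the left (dashed line, median of all genes at -0.05) and the number of genes at least 1.5-fold higher or lower on the right. Both interferon lists lie apart from the other lists, at 0.91 and 0.80.

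Identity genes of cDC2 were mostly within 1.5-fold between the libraries. Of 18 tested, 1 was higher and 1 lower, with a median log2 ratio of -0.10. The higher gene was Hpgds, a prostaglandin D2 synthase, at 6.99 CPM (WT) and 14.5 CPM (cKO). The lower gene was Mgl2. Among the marker genes, Kmo stood at 157 and 178 CPM, Flt3 at 56.0 and 72.2 CPM and Clec10a at 370 and 293 CPM. At 1 depth the shares of cells lay close, with Kmo in 63.6% and 61.9% and Clec10a in 56.3% and 54.8%. Of 26 tested transcription factors 1 was higher and 1 lower. Prdm1, the repressor Blimp-1, was the higher one, at 11.7 and 20.5 CPM, and was inside 1.5-fold in 5 of 17 alternative settings, down to a log2 ratio of 0.04 in cells without Ly6c2.

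Receptors that sense the environment were mostly level. Of 15 pattern recognition receptors 0 were higher and 1 lower, and of 21 cytokine receptors 2 were higher and 0 lower. The higher ones were Tgfbr2, a receptor chain for TGF-beta (38.5 and 63.7 CPM), and Il10ra, a chain of the interleukin-10 receptor (59.5 and 90.5 CPM). Il10ra was inside 1.5-fold in 8 of 17 alternative settings, with log2 ratios from 0.03 to 0.80. The interferon receptors themselves stayed within 1.5-fold, with Ifngr1 at 168 and 146 CPM and Ifnar1 at 70.5 and 86.4 CPM. Of 14 genes of the m6A machinery 2 were higher and 0 lower, namely Ythdf2 and Virma, a subunit of the methyltransferase complex (18.7 and 29.0 CPM). Virma was not past 1.5-fold in 5 of 17 settings, with a log2 ratio of -0.26 in cells without Ly6c2. The related readers Ythdf1 (49.0 and 55.8 CPM) and Ythdf3 (44.3 and 46.1 CPM) stayed within 1.5-fold.

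Stress and metabolic lists showed few genes past 1.5-fold, while the cell cycle list held more. Among 18 dissociation stress genes and 21 glycolysis and hypoxia genes, 0 were past it. The heat shock gene Hspa1b was just inside it, at 186 and 278 CPM, and Hspa1a stood at 258 and 334 CPM. At 1 depth, cells without a Cxcl10 UMI held Hspa1b at 142 and 416 CPM and Hspa1a at 275 and 542 CPM, and those with one at 39.3 and 223 CPM and at 26.2 and 252 CPM. With barcodes thinned before the rule 2 stress genes were higher, and in cells with Flt3 4 were. Of 18 oxidative phosphorylation genes 1 was higher, the electron carrier Cycs at 218 and 341 CPM, which was inside 1.5-fold in 3 of 17 settings. Of 14 cell cycle genes 2 were higher and 5 lower, beside 4.36% and 6.15% of all genes. In other cells the lower genes of this list numbered 19 of 20 in macrophages and 15 of 18 in plasmacytoid dendritic cells. They numbered 13 of 20 in NK cells, 17 of 20 in B cells, 1 of 11 in monocytes and 0 of 20 in T cells. The higher ones in the Cd209a-positive cells were Mki67, with 36.4% of its UMIs of the library labelled cKO in 1 cell, and Top2a, with 49.4% in 1 cell. With cells of 1 Cd209a UMI added, both turned, to log2 ratios of -1.64 and -1.59, and without the top cell they were 0.09 and 0.52. Of 4 cDC2A genes 0 were higher and 1 lower, of 11 cDC2B and type 3 genes 0 and 1, and of 4 kynurenine genes 1 and 0.

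Mgl2 encodes a lectin that resembles Clec10a and lies beside it on chr11 (70130329-70137550 and 70156197-70170834, plus strand), so reads of matching sequence may be split between them. It stood at 199 CPM (WT) and 84.9 CPM (cKO), a ratio of 0.427 (0.363 to 0.502). The share of cells with an Mgl2 UMI was 21.7% and 23.5%, and at 1 depth 22.5% and 17.1%. Other lectins that were lower were Clec4n, the fungal sensor dectin-2, at 125 and 67.8 CPM, and Cd209e at 36.7 and 17.98 CPM, with 33.3% of its UMIs in the library labelled WT in 1 cell and a log2 ratio of 0.72 in cells without Ly6c2. Of 15 tested C-type lectins 0 were higher and 3 lower, beside 4.36% and 6.15% of all genes. In other cells the lower lectins numbered 2 of 11 in monocytes, 4 of 12 in macrophages and 1 of 13 in plasmacytoid dendritic cells. They numbered 4 of 9 in T cells, 2 of 11 in NK cells and 3 of 11 in B cells, so lower lectins were not particular to the Cd209a-positive cells.

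Klrd1 had the lowest ratio of the 30 genes named by the largest ratios. It encodes CD94, a chain of the NK cell receptor for non-classical class I molecules. Klrd1 stood at 412 CPM (WT) and 102 CPM (cKO), a ratio of 0.247 (0.216 to 0.282). At 1 depth it was found in 68.2% (60.2 to 75.5) and 33.3% (27.0 to 40.2) of the cells. Monocytes held little of it, at 13.4 and 16.8 CPM, and plasmacytoid dendritic cells stood at 157 and 49.8 CPM. In T cells the order was opposite, at 392.5 CPM (WT) and 519 CPM (cKO).

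The remaining named lower genes had smaller differences. Eps8, an actin regulator, stood at 198 and 95.3 CPM, and in monocytes at 204.5 and 46.5 CPM. Idh2, the mitochondrial isocitrate dehydrogenase, stood at 68.8 and 40.4 CPM (inside 1.5-fold in 3 of 17 settings), and Chka, a choline kinase, at 121 and 70.7 CPM. Cenpa, the centromeric histone, stood at 140 and 78.5 CPM. Apod, a lipid carrier, stood at 52.5 and 27.1 CPM, with 30.0% of its UMIs in the library labelled WT in 1 cell and a log2 ratio of 0.87 in cells without Ly6c2. Rhoh, a small GTPase of blood cells, stood at 85.1 and 46.4 CPM with 41.8% in 1 cell, and its log2 ratio without the top cell of each library was -0.17.

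RNA of macrophages and tumour cells also differed between the libraries. Summed over 10 macrophage markers, the Cd209a-positive cells stood at 410 CPM (WT) and 228 CPM (cKO). Apoe, a lipid carrier of macrophages, stood at 110 and 40.4 CPM, and at 4410 and 2055 CPM in macrophages. Adgre1, the macrophage antigen F4/80 of the same marker set, went the other way, at 13.4 and 26.5 CPM and in 10.6% and 26.3% of the cells. Pmel, a pigment cell gene, was found in 16.4% and 1.88% of the cells. The cathepsins Ctsl (86.3 and 30.0 CPM) and Ctsd (166 and 87.1 CPM), lysosomal proteases, were the 2 lower genes among 17 of the endosome list. Ctsl lay mostly in the cells with plasmacytoid markers, at 672 against 32.7 CPM in the remaining cells (WT) and 401.5 against 19.0 CPM (cKO) at 1 depth. Without those cells its log2 ratio moved from -1.49 to -0.85. The part of these RNAs in the lower genes was not tested.

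Cells with and without RNA of Mgl2, Ly6c2 or Flt3 were compared within each library at 1 depth. Cells with an Mgl2 UMI held more Tbc1d4, a regulator of membrane traffic, at 221 against 28.3 CPM (WT) and 222 against 30.3 CPM (cKO). They held less F13a1, a coagulation factor of monocytes, at 17.7 against 124 CPM and 16.7 against 96.9 CPM. Cells with a Ly6c2 UMI held more Lyz2, at 2359 against 534 CPM and 1250 against 210 CPM. They held less H2-DMb2, at 73.8 against 256 CPM and 63.9 against 157 CPM. Cells with a Flt3 UMI held more Tppp3, a tubulin-binding protein, at 253 against 99.9 CPM and 255 against 89.1 CPM. They held less Ms4a6d, a membrane protein of monocytes and macrophages, at 51.4 against 193 CPM and 135 against 329 CPM.

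The type I list followed these splits unevenly. In cells with an Mgl2 UMI it summed to 1422 CPM (WT, 34 cells) and 1389 CPM (cKO, 36 cells). In cells without one it summed to 1696 CPM (117 cells) and 3228 CPM (174 cells). The interferon gamma list was higher in the library labelled cKO in both, at 1457 and 2807 CPM with an Mgl2 UMI and at 2713 and 4580 CPM without. Single genes varied in the cells with Mgl2, where Isg15 stood at 66.4 and 117 CPM and Cxcl9 at 31.0 and 372 CPM, but Ifit3 at 79.7 and 37.6 CPM. Whether cells with and without Mgl2 differed in these ratios was not tested. In cells without a Ly6c2 UMI the list stood at 1350 and 2437 CPM, and in cells with one at 1789 and 3156 CPM. In cells with a Flt3 UMI it stood at 1454 and 2383 CPM.

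**Figure D5:**
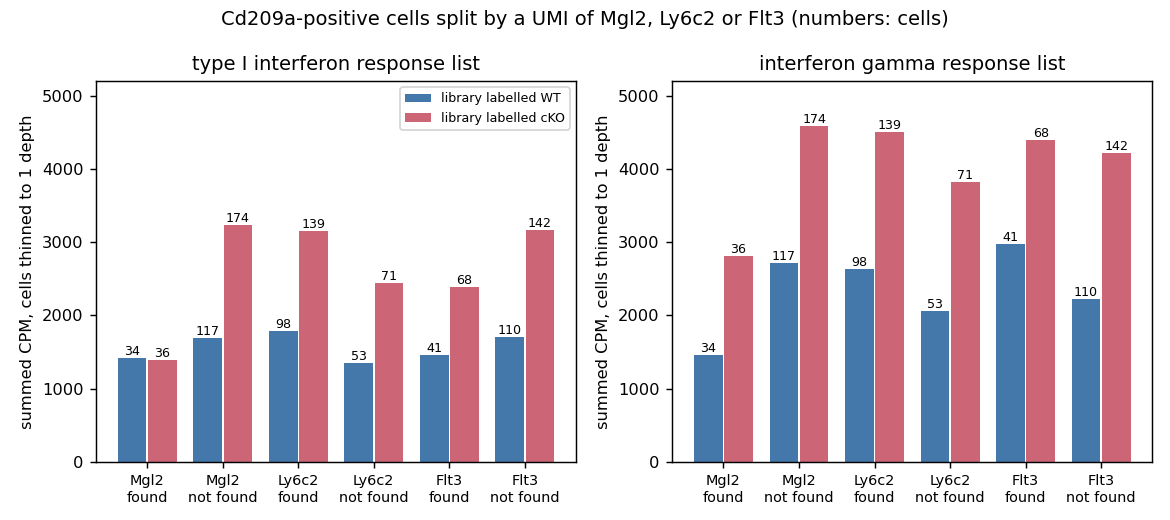
Summed CPM of the type I and interferon gamma lists (y axis) in Cd209a-positive cells thinned to 1 depth and split by a UMI of Mgl2, Ly6c2 or Flt3 (x axis), for the libraries labelled WT and cKO, with the number of cells on each bar. The type I bars of the cells with Mgl2 are nearly level, at 1422 and 1389 CPM, and those of the cells without it stand at 1696 and 3228 CPM, while the interferon gamma bars are higher for cKO in both (1457 and 2807 CPM with Mgl2, 2713 and 4580 CPM without).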

How the data were processed

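Gene counts per barcode, deposited by the authors as UMI counts in sparse matrices, were used as given. Cell Ranger 5.0.1 and Seurat 4.0.4 are named in the submitters' processing notes with build mm10, and the matrix header per the file headers names cellranger 5.0.0. Barcodes with at least 200 genes and at most 10% mitochondrial UMIs were kept. UMIs were summed per library over the chosen cells and scaled to CPM, and log2 ratios used a pseudocount of 1 CPM. The comparison took genes that reached 10 CPM in 1 of the libraries and counted those 1.5-fold apart. Intervals are exact (Poisson for levels, conditional binomial for ratios, Clopper-Pearson for shares) and cover counting error only. Other cell types were taken by limits on their markers. Thinning drew 6641 UMIs per cell without replacement and left out cells with fewer. Doublets were not removed, and Scrublet was run as an alternative. Named genes were the 15 largest ratios on each side with at least 50 CPM in either library and 100 UMIs over both. From these, the genes of the rule and ribosomal, mitochondrial, haemoglobin, immunoglobulin and T cell receptor segment genes were left out. Xist, Tsix, Y-linked and unnamed genes were also left out, as were those under 0.2 of the level in another cell type. Markers and list members were then added. Genes given for a role were added after their values were seen. The members, lists and rules were chosen with earlier results of these data known. Scripts were tested on simulated data. Python 3.11.15, scipy 1.17.1, pandas 2.3.3 and scanpy 1.11.5 were used.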

Additional observations from a re-analysis of the deposited data

How the results depend on the processing

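Genes at least 1.5-fold higher and lower numbered 328 and 463. They numbered 507 and 917 with barcodes thinned before the rule, 767 and 884 in cells with Flt3, 819 and 1183 in cells without Ly6c2, 138 and 127 with a pseudocount of 10 CPM, 1313 and 2119 with no filter, 94 and 50 at 50 CPM or more, and 407 and 391 with median-of-ratios scaling. The log2 ratio of the shares turned to -0.0528 at 1 depth, with shallower barcodes left out. Over these alternatives 13 to 19 type I and 9 to 14 interferon gamma genes were higher. Log2 ratios turned with at least 1 Cd209a UMI for Ccl22 (-1.13), Top2a (-1.59) and Mki67 (-1.64), with thinned barcodes for Iigp1 (-0.0816) and Rhoh (0.18), and in cells with Flt3 for Mcm2 (0.14). In cells without Ly6c2 they turned for Iigp1 (-0.05), Apod (0.87), Cd209e (0.72), Il4i1 (-0.28), Mki67 (-0.91), Il1rn (-0.18) and Virma (-0.26). The cause was not tested. Leaving out cells with plasmacytoid markers, or the top cell of each gene, was chosen after seeing the data, and under these 55 and 52 of the 57 named genes past 1.5-fold stayed past it, all in the same direction. No paired analysis was possible because each group has 1 library, and none could be left out.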
